A study of Homo sapiens with 10 samples.

Results

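The genes described here are 10 genes of the integrated stress response, ATF4, DDIT3, TRIB3, CHAC1, ASNS, SESN2, PSAT1, PHGDH, DDIT4 and VLDLR. They were chosen by name, as the transcription factor ATF4, its partner DDIT3 and genes that respond to amino acid shortage or unfolded protein, and all 10 were found among the 13920 genes of the count table. RNA was sequenced from T47D cells, an established human breast cancer cell line, grown as spheroids (3-dimensional aggregates) without drug or added immune cells. There were 4 libraries of wild-type (WT) cells and 4 of SAMHD1-KO clone A1, from experiments 10, 11, 15 and 16, and 2 libraries of SAMHD1-KO clone A2, from experiments 15 and 16. SAMHD1 is a deoxynucleotide triphosphate hydrolase, and the KO lines were made with CRISPR-Cas9 aimed at its exon 5. Each KO line is 1 clone, so a difference between a clone and WT cannot be told apart from other differences that this clone carries. WT, clone A1 and clone A2 were compared within experiments 15 and 16, WT and clone A1 within experiments 10 and 11, and WT between these experiment pairs, 2 libraries against 2 in each case. The labels give each library an experiment number and the study describes biological duplicates, and neither says what else changed between the experiment pairs.

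In the integrated stress response, kinases that sense unfolded protein, lack of amino acids, double-stranded RNA or lack of haem phosphorylate the translation factor eIF2 alpha. General protein synthesis then falls, while the ATF4 mRNA is translated more. ATF4 protein binds CARE elements (C/EBP-ATF response elements) and raises genes for amino acid synthesis and import, redox balance and, under lasting stress, cell death. Since ATF4 is controlled largely at translation, its mRNA level does not give the level of its protein.

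The core of the CARE element, TGATGNAA on either strand, was searched in the promoter windows of the 10 genes, from 250 bases before to 50 bases after each start site in RefSeq (GRCh38.p14). It was found in 2 of the 10, CHAC1 and ASNS, and in 2.8% of the 11366 listed genes with a window. These sequences are shown because CHAC1 and ASNS are textbook ATF4 targets, and capitals mark the motif.
CHAC1, chr15:40953237-40953294, plus strand: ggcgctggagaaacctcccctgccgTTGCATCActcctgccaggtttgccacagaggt
ASNS, chr7:97872444-97872501, minus strand: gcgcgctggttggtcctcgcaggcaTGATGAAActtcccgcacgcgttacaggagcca
The CHAC1 match reads in the reverse direction and begins 209 bases upstream of the start site, and that of ASNS lies 68 bases upstream of one of its start sites.

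Total counts per library ranged from 40077369 to 51311482. SAMHD1 had 49.8 to 56.4 CPM (read counts brought to a common library size by TMM scaling) in WT, 22.5 and 23.0 CPM in clone A1 of experiments 10 and 11, 6.44 and 6.15 CPM in clone A1 of experiments 15 and 16, and 23.6 and 20.2 CPM in clone A2. Every KO library was thus below every WT library, and clone A1 had a different SAMHD1 level in each experiment pair. Of 9 luminal epithelial markers expected in T47D cells, ESR1 (0.183 to 1.59 CPM), CDH1 (0.684 to 2.16 CPM) and EPCAM (0.348 to 1.78 CPM) were near absent, KRT19 was not among the listed genes and KRT8 had 3.10 to 9.07 CPM, while PGR, GATA3, FOXA1 and KRT18 had 14.1 to 60.3 CPM. The labelled cell line was therefore without several of its defining markers in all 10 libraries, WT included. Markers of leukocytes and endothelium were not listed or had at most 2.12 CPM (CD68). Of the fibroblast markers, COL1A1 had 5.91 to 11.4 CPM and COL3A1 1.66 to 17.9 CPM. The others (COL1A2, DCN, LUM and PDGFRB) were not listed. The COL3A1 range thus overlapped those of PGR, GATA3 and FOXA1.

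All 10 stress response genes were measured well above the counting limit, with a lowest count of 284 (CHAC1). Per kilobase of the main transcript, ATF4 was the most abundant in WT, with a median of 354 CPM per kilobase (330.2 to 369 over the 4 libraries). PHGDH followed with 199 (191 to 212) and DDIT4 with 112 (99.3 to 131). ASNS had 74.5 (50.8 to 85.1) and PSAT1 57.7 (48.2 to 60.6), and these were the only neighbours in the order whose WT ranges overlapped. Below them lay SESN2 at 20.7, DDIT3 at 13.4, TRIB3 at 8.90, CHAC1 at 4.31 and VLDLR at 3.17 CPM per kilobase. The factor at the head of the response and the first enzyme of serine synthesis were thus far more abundant than the stress-induced effectors DDIT3, TRIB3 and CHAC1.

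**Figure D1:**
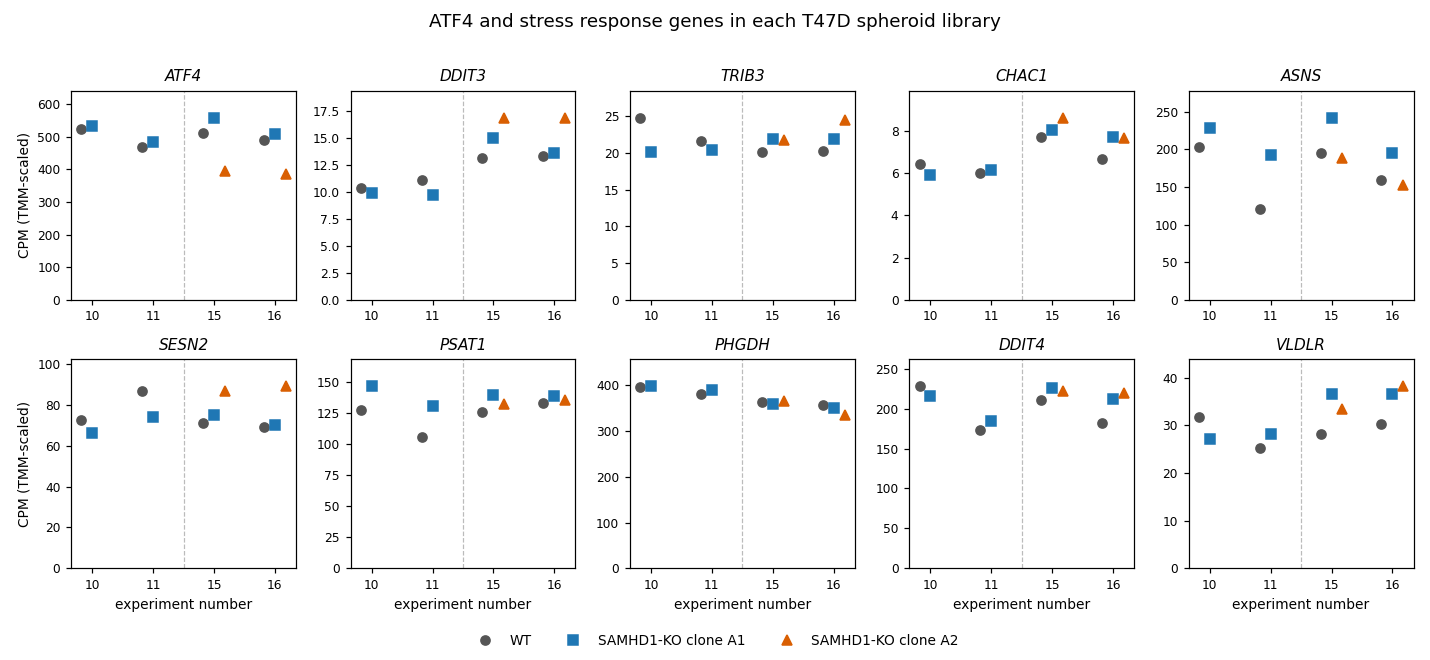
Level of each of the 10 genes (CPM after TMM scaling, axes from 0) in each library by experiment number, with WT as circles, clone A1 as squares, clone A2 as triangles and a dashed line between the experiment pairs. ATF4 lies at 385 and 396 CPM in clone A2 and between 469 and 558.5 CPM in the other 8 libraries, and VLDLR lies at 33.5 to 38.2 CPM in the 4 KO libraries of experiments 15 and 16.

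Changes in the 10 genes were small: the highest library exceeded the lowest by 1.18 times for PHGDH and by 2.00 times for ASNS, with the other 8 genes between. In clone A2, ATF4 mRNA was lower than in WT, while DDIT3 and SESN2 were higher, each by 0.33 to 0.36 on the log2 scale. In clone A1, differences from WT stayed below the threshold for all 10 genes in both experiment pairs (adjusted p of 0.05 over all genes in the quasi-likelihood test of edgeR, given below as edgeR QL). For all 10 genes the 6 KO values overlapped the 4 WT values, and such separation was found in 1.51% of all genes.

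ATF4 had 524, 469, 513 and 491 CPM in the WT libraries (experiments 10, 11, 15 and 16). Clone A1 had 533, 486, 558.5 and 509 CPM in the same order, and the levels in clone A2 were 396 and 385 CPM. Both clone A2 libraries were below all the others, and the clone A1 range overlapped that of WT. In experiments 15 and 16 the mean was 502 ± 15.4 CPM in WT, 534 ± 34.8 in clone A1 and 390.2 ± 7.88 in clone A2 (SD, n = 2 each). The log2 fold change was −0.36 between clone A2 and WT (SE 0.073, edgeR QL adjusted p = 0.00257) and −0.45 between clone A2 and clone A1 (SE 0.073, edgeR QL adjusted p = 0.00101). Both differences passed the threshold without any 1 of the libraries compared. In bulk spheroid RNA, fewer cells with the transcript and less of it per cell cannot be told apart. For clone A1 against WT it was 0.09 (SE 0.073, edgeR QL adjusted p = 0.525) in experiments 15 and 16 and 0.04 (SE 0.073, edgeR QL adjusted p = 0.843) in experiments 10 and 11.

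ATF4 lies on chromosome 22 (39520559 to 39522686, plus strand, GRCh38), and this chromosome was lower in clone A2 as a whole. Of 313 listed chromosome 22 genes outside the gene lists used here, 96.5% had a negative log2 fold change against WT, 247 were called lower and 0 higher (0 higher also against clone A1), with a median of −0.49. In clone A1 of the same experiments the median was 0.01, with 3 genes called lower and 6 higher. The 174 listed genes within 10 Mb of ATF4 had a median of −0.54 in clone A2 against WT, and ATF4, at −0.36, was higher than 85.1% of them. Its lower level in clone A2 thus moved with its neighbours, and a change particular to ATF4 cannot be told apart from that of the chromosome in these counts.

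**Figure D2:**
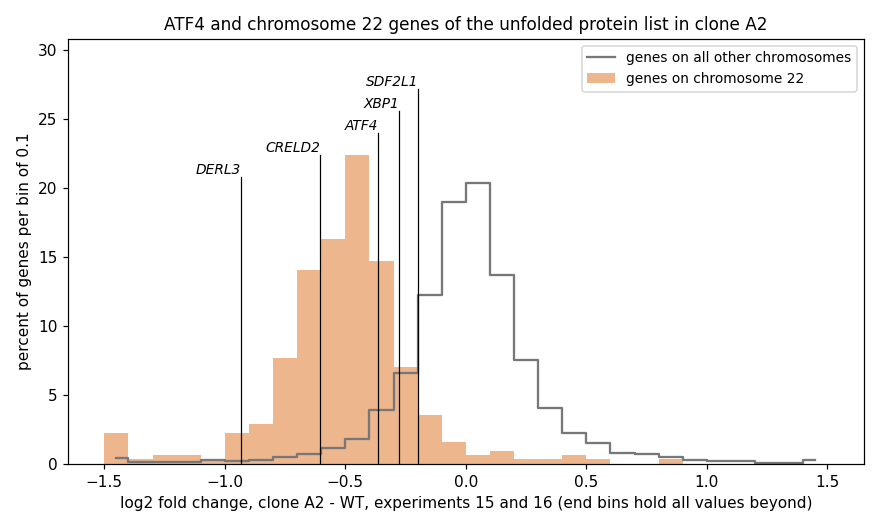
Distribution of the log2 fold change of clone A2 against WT in experiments 15 and 16, as percent of genes per bin of 0.1, for chromosome 22 (filled bars) and all other chromosomes (grey line), with black lines at ATF4 and the 4 unfolded protein response genes of chromosome 22. The chromosome 22 genes centre near −0.49, with ATF4 at −0.36, XBP1 at −0.28, SDF2L1 at −0.20, CRELD2 at −0.60 and DERL3 at −0.93.

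DDIT3 encodes CHOP, the transcription factor that partners ATF4 and promotes death under lasting stress. It had 10.4, 11.1, 13.2 and 13.4 CPM in the WT libraries (experiments 10, 11, 15 and 16), and 9.89, 9.70, 14.99 and 13.6 CPM in clone A1. Clone A2 had 16.9 CPM in both of its libraries, above all others. DDIT3 rose by 0.35 on the log2 scale in clone A2 against WT (SE 0.095, edgeR QL adjusted p = 0.0195). That call was lost without any 1 of the 4 libraries compared (edgeR QL adjusted p from 0.0907 to 0.122), with the log2 fold change between 0.34 and 0.36. Against clone A1 the difference was 0.24 (SE 0.094, edgeR QL adjusted p = 0.214). DDIT3 was also higher in WT of experiments 15 and 16 than in WT of experiments 10 and 11, by 0.31 (SE 0.097, edgeR QL adjusted p = 0.0406), a call that was lost with DESeq2 (adjusted p = 0.0628) and without any 1 of the WT libraries (edgeR QL adjusted p from 0.0577 to 0.188). Its shift between WT experiments was thus close in size to its shift in clone A2.

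TRIB3, a pseudokinase that ATF4 and CHOP induce and that dampens their activity, and CHAC1, an enzyme that degrades glutathione, differed little. TRIB3 had 24.8, 21.6, 20.1 and 20.4 CPM in the WT libraries (experiments 10, 11, 15 and 16), with 20.1 to 21.98 CPM in clone A1 and 21.8 and 24.5 CPM in clone A2. CHAC1 had 6.44, 5.997, 7.71 and 6.67 CPM in WT, 5.91 to 8.04 CPM in clone A1 and 8.63 and 7.69 CPM in clone A2. The groups overlapped for both genes, and neither passed the threshold in any comparison. In clone A2 against WT the log2 fold change was 0.20 for TRIB3 (SE 0.092, edgeR QL adjusted p = 0.162) and 0.19 for CHAC1 (SE 0.12, edgeR QL adjusted p = 0.352).

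SESN2 and DDIT4 both restrain the growth regulator mTORC1, SESN2 as a leucine-sensing sestrin and DDIT4 (REDD1) on stress and low oxygen. SESN2 had 72.3, 86.4, 71.0 and 69.3 CPM in the WT libraries (experiments 10, 11, 15 and 16), and 66.3, 74.1, 74.7 and 70.0 CPM in clone A1. Clone A2 had 86.9 and 88.9 CPM, higher than WT and clone A1 of the same experiments but close to WT of experiment 11. SESN2 rose by 0.33 on the log2 scale in clone A2 against WT (SE 0.085, edgeR QL adjusted p = 0.0152). Without any 1 of the 4 libraries compared the adjusted p lay between 0.0569 and 0.103, and the log2 fold change between 0.31 and 0.34. The difference of 0.28 between clone A2 and clone A1 did not pass the threshold (SE 0.085, edgeR QL adjusted p = 0.0821), but it did in a fit of experiments 15 and 16 alone (edgeR QL adjusted p = 0.0132).

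DDIT4 had 228, 173, 210.2 and 182 CPM in the WT libraries (experiments 10, 11, 15 and 16), and 216, 185, 226 and 212 CPM in clone A1. Clone A2 had 222 and 220.0 CPM. WT itself spanned 173 to 228 CPM, so that every KO value lay within the WT range. Against WT of the same experiment, clone A1 was 0.10 and 0.22 and clone A2 0.079 and 0.28 higher in log2 CPM in experiments 15 and 16, while the difference of clone A1 was −0.076 in experiment 10 and 0.093 in experiment 11. The log2 fold change against WT in experiments 15 and 16 was 0.16 in clone A1 (SE 0.11, edgeR QL adjusted p = 0.442) and 0.17 in clone A2 (SE 0.11, edgeR QL adjusted p = 0.332).

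Of the amino acid enzymes, ASNS makes asparagine, PHGDH carries out the first step of serine synthesis and PSAT1 the next. ASNS had 203, 121, 196 and 159.7 CPM in the WT libraries (experiments 10, 11, 15 and 16), and 229, 193, 242 and 195 CPM in clone A1. Clone A2 had 189 and 153 CPM. Clone A1 was higher than WT of the same experiment in all 4 experiments, by 0.17, 0.67, 0.31 and 0.29 in log2 CPM, while clone A2 was 0.05 and 0.06 lower. In every group ASNS was also lower in experiment 11 than in 10 and in 16 than in 15, and this spread gave it the widest error of the 10 genes. Its log2 fold change in clone A1 was 0.38 in experiments 10 and 11 (SE 0.28, edgeR QL adjusted p = 0.634) and 0.30 in experiments 15 and 16 (SE 0.28, edgeR QL adjusted p = 0.627). The 156 genes within 10 Mb of ASNS had a median of −0.22 in clone A1 against WT in experiments 15 and 16.

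PSAT1 had 128, 106, 126 and 134 CPM in the WT libraries (experiments 10, 11, 15 and 16), 147, 131, 140.1 and 139 CPM in clone A1, and 133 and 136 CPM in clone A2. Clone A1 was higher than WT of the same experiment each time. The log2 fold change in experiments 10 and 11 amounted to 0.24 (SE 0.084, edgeR QL adjusted p = 0.367), and it passed the threshold without WT of experiment 10 (0.38, edgeR QL adjusted p = 0.00896). In experiments 15 and 16 it was 0.10 (SE 0.084, edgeR QL adjusted p = 0.539). PHGDH was the steadiest of the 10 genes, at 335 to 397 CPM over all libraries. Its log2 fold change against WT in experiments 15 and 16 was −0.02 in clone A1 (SE 0.063, edgeR QL adjusted p = 0.879) and −0.04 in clone A2 (SE 0.063, edgeR QL adjusted p = 0.720).

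VLDLR, a lipoprotein receptor that is raised under endoplasmic reticulum stress and low oxygen, had 31.7, 25.3, 28.1 and 30.3 CPM in the WT libraries (experiments 10, 11, 15 and 16). Clone A1 had 27.1 and 28.2 CPM in experiments 10 and 11, within the WT range, and 36.6 CPM in both later experiments. Clone A2 had 33.5 and 38.2 CPM. All 4 KO values of experiments 15 and 16 were thus above all WT values of any experiment. The clones were also joined as 4 KO libraries in a fit without a term for the clone. Libraries of the same clone thus counted as separate replicates. In this fit SAMHD1 itself did not pass the threshold (−1.91, SE 0.66, edgeR QL adjusted p = 0.176). Against the 2 WT libraries of experiments 15 and 16, VLDLR rose by 0.31 on the log2 scale in the same fit (SE 0.075, edgeR QL adjusted p = 0.0218). That call was lost without clone A2 of experiment 16 (edgeR QL adjusted p = 0.0584), WT of experiment 15 (edgeR QL adjusted p = 0.258) or WT of experiment 16 (edgeR QL adjusted p = 0.107). Taken alone, clone A1 differed from WT by 0.33 (SE 0.10, edgeR QL adjusted p = 0.0551) and clone A2 by 0.29 (SE 0.10, edgeR QL adjusted p = 0.0543). With DESeq2 both passed, with adjusted p of 0.0318 and 0.0428, as they did in a fit of experiments 15 and 16 alone (edgeR QL adjusted p of 0.0152 and 0.0166). The clone A1 effect was 0.37 higher in experiments 15 and 16 than in experiments 10 and 11, a difference that did not pass the threshold (SE 0.14, edgeR QL adjusted p = 0.208). With each library left out in turn this difference lay between 0.20 and 0.52, the highest without WT of experiment 11.

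**Figure D3:**
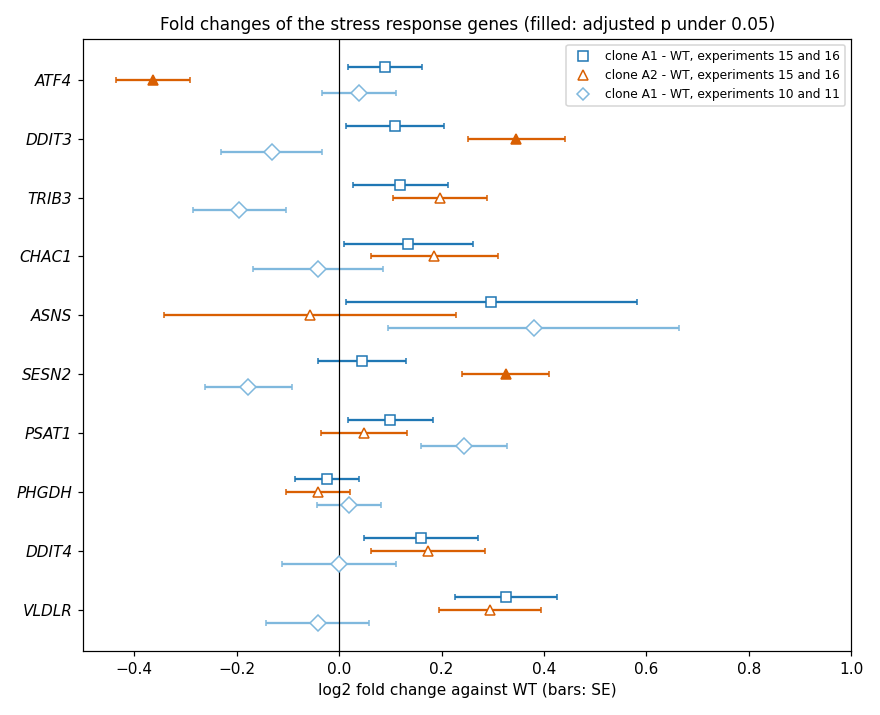
Log2 fold change against WT (points) with its SE (bars) for the 10 genes in clone A1 (squares) and clone A2 (triangles) of experiments 15 and 16 and in clone A1 of experiments 10 and 11 (diamonds). Filled symbols passed the threshold: ATF4, DDIT3 and SESN2 in clone A2, at −0.36, 0.35 and 0.33.

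Read against all genes, the counts of calls were modest. In clone A2 against WT, 3 of the 10 genes were called, 2 higher and 1 lower, where 16.4% of all genes were called. In clone A1 against WT of experiments 15 and 16, edgeR called 0 of the 10, where 8.24% of all genes were called, with 1 gene (VLDLR) at an unadjusted p under 0.05 and 1 called by DESeq2. In clone A2 against clone A1 it was 1 of 10 (ATF4), against 4.14% of all genes.

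For clone A1 in experiments 10 and 11, edgeR and DESeq2 called 0 of the 10, with 2 (TRIB3 and PSAT1) at an unadjusted p under 0.05, and 0.194% of all genes were called. Between WT of the experiment pairs 1 of the 10 was called (DDIT3), where 16.4% of all genes were called. The difference of the clone A1 effect between the pairs was called in 0 of the 10 by edgeR and DESeq2, with 2 (TRIB3 and VLDLR) at an unadjusted p under 0.05, and in 2.50% of all genes. In the joined comparison of 4 KO with 2 WT libraries it was 1 of 10 (VLDLR), against 9.99% of all genes. Whether these counts differ from the background was not tested, and the group holds only 10 genes.

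The signs of the fold changes, which include values below the threshold, are given for each comparison on its own, since the clones share their WT libraries. In clone A1 of experiments 15 and 16, 9 of the 10 values were positive, with a median of 0.11 against 0.003 for all genes. In clone A2, 7 of 10 were positive, with a median of 0.18 against 0.007. In clone A1 of experiments 10 and 11, 4 of 10 were positive, with a median of −0.02. Over the 10 libraries, DDIT4 followed the mean pattern of the other 9 genes most closely (Pearson r = 0.884), then VLDLR (0.743) and CHAC1 (0.576), while the values of ATF4 (−0.250), SESN2 (−0.166) and PHGDH (−0.523) were negative. The value of ATF4 rested on the 2 clone A2 libraries, in which chromosome 22 was lower: over the other 8 libraries it was 0.858, equal to that of DDIT4 (0.858), and ASNS reached 0.713, while SESN2 (−0.50) and PHGDH (−0.41) stayed negative. These values describe libraries that share groups and experiments, and clone A2 was left out after the values were seen.

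Other genes of the pathway were taken from lists that were fixed by function, and each count of calls is to be read against the share of all genes called in the same comparison, 8.24% in clone A1 against WT of experiments 15 and 16 and 16.4% in clone A2 against WT. Whether the share of a list differs from that of all genes was not tested, and the lists hold only 12 to 28 genes. The kinases, eIF2 and eIF2B subunits and phosphatase subunits that set eIF2 alpha phosphorylation (17 genes) had 0 calls in clone A1 of experiments 15 and 16 by edgeR and DESeq2, with 2 genes at an unadjusted p under 0.05. In clone A2 against WT 2 were lower (11.8% of the list, where 16.4% of all genes were called), both regulatory subunits of the phosphatase that reverses eIF2 alpha phosphorylation: PPP1R15A (GADD34), which stress induces, by −0.44 (SE 0.095, edgeR QL adjusted p = 0.00420) and PPP1R15B (CReP), which is constitutive, by −0.25 (SE 0.076, edgeR QL adjusted p = 0.0303). With 1 of the 4 libraries compared left out, 0 or 1 of the 17 were called lower: PPP1R15B was lost each time (edgeR QL adjusted p from 0.0505 to 0.257) and PPP1R15A without clone A2 of experiment 16 (0.0620). The 105 listed genes within 10 Mb of PPP1R15B had a median of −0.22, and the 411 near PPP1R15A one of −0.16. PPP1R15A also differed between the experiment pairs in WT, from 72.4 and 89.6 CPM in experiments 10 and 11 to 52.6 and 55.3 CPM in experiments 15 and 16 (log2 fold change −0.59, SE 0.093, edgeR QL adjusted p = 0.000678). DDIT3 was thus higher and PPP1R15A, another target of the response, lower in the later WT spheroids.

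Of 12 amino acid transporters, 2 were higher and 2 lower in clone A1 of experiments 15 and 16, and 2 higher and 1 lower in clone A2. These were 33.3% of the list in clone A1 and 25% in clone A2, where 8.24% and 16.4% of all genes were called, and the median log2 fold change was 0.11 and 0.15. SLC7A11, the cystine importer, had 11.7, 10.02, 12.5 and 15.7 CPM in the WT libraries (experiments 10, 11, 15 and 16). Clone A1 had 10.7 and 10.2 CPM in the early pair and 24.5 and 24.7 CPM in the later pair, and clone A2 had 21.7 and 24.0 CPM. The 4 later KO libraries were above all others. It rose by 0.80 in clone A1 (SE 0.11, edgeR QL adjusted p = 0.000330) and by 0.69 in clone A2 (SE 0.11, edgeR QL adjusted p = 0.000475), and the clone A1 effect was 0.86 larger in the later pair (SE 0.16, edgeR QL adjusted p = 0.00957), a call lost without clone A1 of experiment 10 or 11 (adjusted p up to 0.0515). It was also 0.38 higher in WT of experiments 15 and 16 than in WT of experiments 10 and 11 (SE 0.12, edgeR QL adjusted p = 0.0334), where its 42 neighbours had a median of 0.40, a call lost without WT of experiment 11 or 16. SLC7A3, an importer of cationic amino acids, was scarce, with 0.954, 1.47, 3.20 and 3.98 CPM in the WT libraries, 1.18, 1.76, 7.59 and 6.86 CPM in clone A1 and 4.40 and 4.12 CPM in clone A2. It rose by 1.00 in clone A1 of experiments 15 and 16 (SE 0.20, edgeR QL adjusted p = 0.00560), a call lost without WT or clone A1 of experiment 15, and was lower in clone A2 than in clone A1 (−0.76, SE 0.20, edgeR QL adjusted p = 0.0373), a call lost without any 1 of the 4 libraries compared. Between WT spheroids it was 1.57 higher in experiments 15 and 16 than in experiments 10 and 11 (SE 0.23, edgeR QL adjusted p = 0.000434), which passed without any 1 of the WT libraries. SLC3A2, the partner chain of SLC7A11, rose by 0.38 in clone A2 (SE 0.070, edgeR QL adjusted p = 0.00132). SLC7A5, the large neutral amino acid importer that also pairs with SLC3A2, fell by 0.28 in clone A1 (SE 0.069, edgeR QL adjusted p = 0.0188), and SLC1A5, a glutamine importer, fell in both clones, by 0.29 in clone A1 and 0.20 in clone A2, with medians of −0.19 and −0.16 among its 398 neighbours. Without any 1 of the 4 libraries compared, the transporters called came to 1 or 2 higher and 0 or 1 lower in clone A1, and to 2 higher and 0 lower in clone A2. SLC7A11 in both clones and SLC3A2 passed each time, while SLC7A5 in clone A1 and SLC1A5 in clone A2 were lost each time, with edgeR QL adjusted p from 0.0893 to 0.147 and from 0.0729 to 0.215, and SLC1A5 in clone A1 passed only without clone A1 of experiment 16.

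Of 19 enzymes of serine, glycine, proline and one-carbon metabolism, 2 were higher and 1 lower in clone A1 of experiments 15 and 16, and 3 higher and 4 lower in clone A2. These were 15.8% and 36.8% of the list, where 8.24% and 16.4% of all genes were called, with medians of −0.094 and 0.019. GLDC, of the glycine cleavage system, rose by 0.53 in clone A1 (SE 0.079, edgeR QL adjusted p = 0.000562) and by 0.43 in clone A2 (SE 0.079, edgeR QL adjusted p = 0.00125). GPT2, mitochondrial alanine aminotransferase, rose by 0.31 in clone A1 (SE 0.075, edgeR QL adjusted p = 0.0185) and by 0.45 in clone A2 (SE 0.075, edgeR QL adjusted p = 0.000663), and PSPH, the last step of serine synthesis after PSAT1, rose by 0.27 in clone A2 (SE 0.073, edgeR QL adjusted p = 0.0199). AMT, another part of glycine cleavage, fell by 0.89 in clone A2 (SE 0.14, edgeR QL adjusted p = 0.000447), and GOT1, cytosolic aspartate aminotransferase, by 0.39 (SE 0.072, edgeR QL adjusted p = 0.00157), where its 139 neighbours had a median of −0.27. Of 20 cytosolic tRNA synthetases 0 were higher and 1 lower in clone A1 by edgeR (0 and 3 by DESeq2, 6 at an unadjusted p under 0.05), and 2 higher (CARS1 and MARS1) and 3 lower (QARS1, EPRS1 and VARS1) in clone A2, which was 5% and 25% of the list against the same 8.24% and 16.4% of all genes. The gene called in clone A1 was FARSA, at −0.34 (SE 0.071, edgeR QL adjusted p = 0.00797), with 352 neighbours at a median of −0.19. In clone A2 QARS1 fell by 0.27 (SE 0.060, edgeR QL adjusted p = 0.00506), and it was also lower in the later WT spheroids than in the early ones, by −0.45 (SE 0.060, edgeR QL adjusted p = 0.000203). EPRS1 fell by 0.27 (SE 0.077, edgeR QL adjusted p = 0.0234), like the median of its 101 neighbours (−0.27), and VARS1 by 0.24 (SE 0.077, edgeR QL adjusted p = 0.0463), while CARS1 rose by 0.27 (SE 0.082, edgeR QL adjusted p = 0.0297) and MARS1 by 0.24 (SE 0.064, edgeR QL adjusted p = 0.0187). The call of FARSA was lost without WT or clone A1 of experiment 15, that of QARS1 in clone A2 without clone A2 of experiment 15 or WT of experiment 16, those of EPRS1, VARS1 and MARS1 without any 1 of the libraries compared, and CARS1 passed only without clone A2 of experiment 15. Without any 1 of the 4 libraries compared, the synthetases called in clone A2 came to 0 or 1 higher and 0 or 1 lower, and the enzymes to 2 or 3 higher and 2 or 3 lower. In clone A1 the enzymes came to 1 higher and 0 or 1 lower, and the synthetases to 0 higher and 0 to 2 lower. GLDC in both clones and GPT2, AMT and GOT1 in clone A2 passed without any 1 of these libraries. GPT2 in clone A1 was lost each time, and PSPH passed only without clone A2 of experiment 15. GPT2 and PSPH were also higher in the later WT spheroids than in the early ones, by 0.31 and 0.24 (edgeR QL adjusted p of 0.0113 and 0.0368). Both of these calls were lost without some of the WT libraries.

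Of 19 tested partner factors and other targets, 2 were higher and 1 lower in clone A1 of experiments 15 and 16 (15.8% of the list, where 8.24% of all genes were called), with a median of 0.12. STC2, a secreted glycoprotein of the stress response, rose by 0.57 (SE 0.15, edgeR QL adjusted p = 0.0419) and VEGFA, an angiogenic factor, by 0.32 (SE 0.069, edgeR QL adjusted p = 0.00860), while CEBPD fell by 0.71 (SE 0.20, edgeR QL adjusted p = 0.0347). With any 1 of the 4 libraries compared left out, 0 or 1 were called higher and 0 or 1 lower: STC2 was lost each time (edgeR QL adjusted p from 0.119 to 0.217), VEGFA passed only without clone A1 of experiment 16 (0.0251) and CEBPD only without WT of experiment 16 (0.0389). In clone A2 edgeR called 0 of the 19, with 5 at an unadjusted p under 0.05 and 1 higher by DESeq2, where edgeR called 16.4% of all genes. NUPR1 and FGF21 were not among the listed genes.

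The endoplasmic reticulum unfolded protein response was represented by 28 genes of its sensors, chaperones and degradation factors. In clone A1 of experiments 15 and 16, 3 were higher and 0 lower (8 at an unadjusted p under 0.05, and the same counts by DESeq2). This was 10.7% of the list, near the 8.24% of all genes called, and the median log2 fold change was 0.11 (0.003 over all genes). DNAJB9, a cochaperone of BiP, rose by 0.37 (SE 0.11, edgeR QL adjusted p = 0.0399), PDIA4, a disulphide isomerase, by 0.29 (SE 0.064, edgeR QL adjusted p = 0.00925) and XBP1, the factor that IRE1 activates by splicing its mRNA, by 0.28 (SE 0.078, edgeR QL adjusted p = 0.0340). With any 1 of the 4 libraries compared left out, 0 or 1 of the 28 genes were called higher, and only PDIA4 passed, without clone A1 of experiment 16 (edgeR QL adjusted p = 0.0388).

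In clone A2 4 of the 28 were higher and 5 lower, 32.1% of the list where 16.4% of all genes were called, with a median of 0.10. HERPUD1, of the degradation machinery, rose by 0.46 (SE 0.088, edgeR QL adjusted p = 0.00182), PDIA4 by 0.45 (SE 0.064, edgeR QL adjusted p = 0.000165) and HSPA5, the chaperone BiP itself, by 0.27 (SE 0.062, edgeR QL adjusted p = 0.00648). Its level was 356 and 371 CPM in the WT libraries of experiments 15 and 16 and 423 and 453 CPM in clone A2. The genes that fell furthest were DERL3, by 0.93 (SE 0.20, edgeR QL adjusted p = 0.00458), CRELD2, by 0.60 (SE 0.11, edgeR QL adjusted p = 0.00101), and ERO1B, by 0.53 (SE 0.11, edgeR QL adjusted p = 0.00266), and XBP1 was also lower, by −0.28. With 1 of the 4 libraries compared left out, 2 or 3 were called higher and 2 to 4 lower. PDIA4, HERPUD1 and CRELD2 passed each time, DERL3 and ERO1B were lost without clone A2 of experiment 15 (edgeR QL adjusted p of 0.0519 and 0.0523), HSPA5 without clone A2 of experiment 16 or WT of experiment 15, and XBP1 passed only without clone A2 of experiment 16. DERL3, CRELD2 and XBP1 lie on chromosome 22, and ERO1B had 91 neighbours on chromosome 1 with a median of −0.32. On the other chromosomes, 4 of 24 genes were higher and 2 lower, with a median of 0.14. This division by chromosome was made after the values were seen. In both clones PDIA4 lay among neighbours that were higher as well, with medians of 0.16 in clone A1 and 0.23 in clone A2, and the 157 neighbours of HSPA5 had a median of 0.18 in clone A2 beside its own 0.27. The 75 neighbours of HERPUD1 had a median of 0.00023 there.

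**Figure D4:**
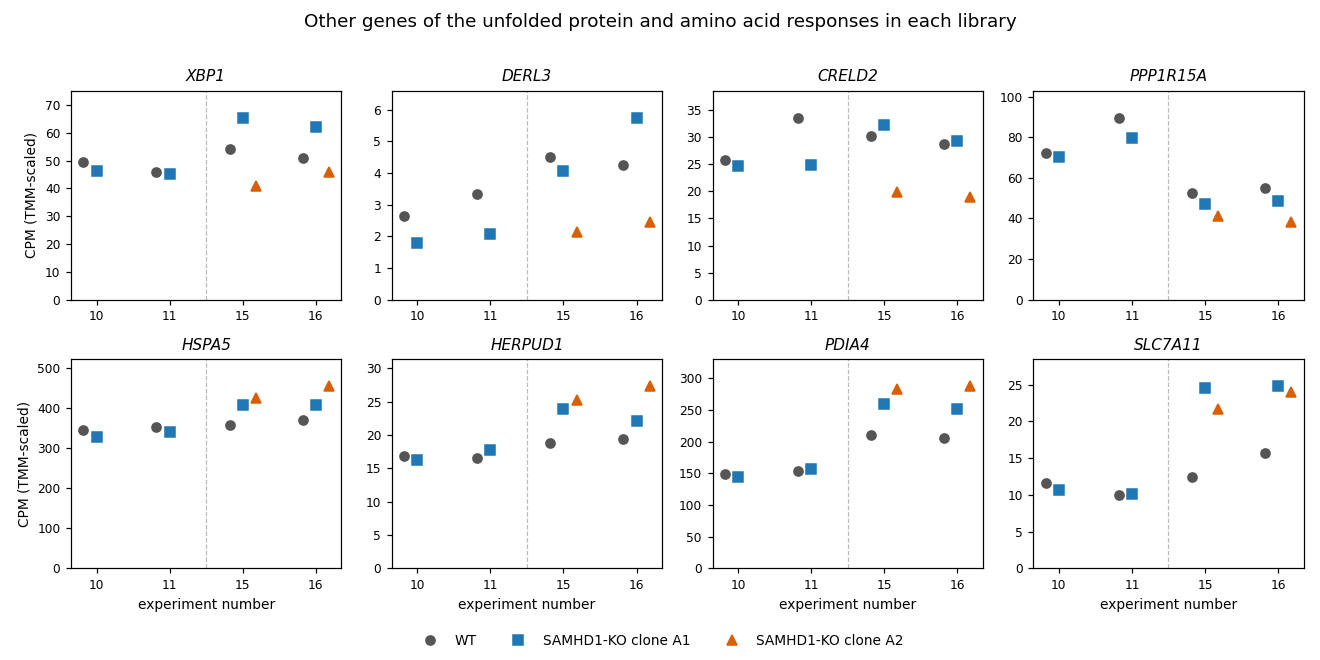
Level of 8 further genes of the response (CPM after TMM scaling, axes from 0) in each library by experiment number, with WT as circles, clone A1 as squares and clone A2 as triangles. XBP1, DERL3 and CRELD2 are lowest in clone A2 within experiments 15 and 16, and SLC7A11 lies at 21.7 to 24.7 CPM in the 4 later KO libraries and at 10.02 to 15.7 CPM elsewhere.

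WT spheroids themselves differed between the experiment pairs in the same list, with 5 of the 28 genes higher and 0 lower in experiments 15 and 16 (12 at an unadjusted p under 0.05, and 5 higher and 0 lower by DESeq2). This was 17.9% of the list, near the 16.4% of all genes called in this comparison, with a median of 0.16 (0.0025 over all genes). With 1 WT library left out, 3 to 8 were called higher and 0 to 3 lower, the 8 and 3 without WT of experiment 10 and the lowest count without WT of experiment 15 or 16. DNAJB9 rose by 0.63 (SE 0.11, edgeR QL adjusted p = 0.00136), PDIA4 by 0.46 (SE 0.064, edgeR QL adjusted p = 0.000264) and MANF, a secreted stress protein, by 0.35 (SE 0.068, edgeR QL adjusted p = 0.00291), and these 3 passed without any 1 of the WT libraries. In WT, PDIA4 was at 149 and 153 CPM in experiments 10 and 11 and at 211 and 206 CPM in experiments 15 and 16, with 251 to 287 CPM in the later KO libraries. For DNAJB9 and PDIA4 the fold change between WT spheroids of different experiments was thus no smaller than that of either clone against WT; whether the sizes differ was not tested. Clone A1 of experiments 10 and 11 had 0 of the 28 genes called by edgeR or DESeq2, with 3 at an unadjusted p under 0.05.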

How the data were processed

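RNA from 10 T47D spheroid libraries was sequenced after TruSeq stranded mRNA preparation. The labels name the Maxwell kit for extraction and the study's methods the NucleoSpin kit. The authors aligned reads to GRCh38 (NCBI annotation) with HISAT2, and the labels also list StringTie; versions and the counting program are not given in the sources used here. The deposited values are raw read counts per NCBI gene identifier, from which the authors removed genes with a count of 0 in any library, so that genes silent in 1 group are missing. Of 13920 identifiers, 13885 matched a symbol in the RefSeq table of GRCh38.p14.

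The tests used edgeR 4.0.16 under R 4.3.3, with TMM scaling and the robust quasi-likelihood (QL) F-test. All 10 libraries entered 1 fit of 5 groups (cell line by experiment pair, 2 libraries each), and 4 KO and 2 WT libraries entered a separate fit. Benjamini-Hochberg adjustment covered every gene of the table, with a threshold of 0.05. SE was the log2 fold change divided by the root of F. Log2 CPM used a prior count of 2, and CPM per kilobase the MANE Select transcript (GENCODE 44). Beyond the study's mention of biological duplicates, libraries carry only an experiment number, so p-values measure the spread between these libraries, which may be technical. No 2 libraries agreed within counting noise (45 pairs, chi-square over its degrees of freedom 6.74 to 149.8). Alternatives were DESeq2 1.42.0, RLE normalization, a filter on mean count (10 or more), a block for the experiment number, fits of fewer libraries, and each library left out in turn. The fit was tested on simulated data.

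The members, lists and tests were chosen with earlier results of these data known. Named genes were the 10 members, SAMHD1, up to 3 called genes per list and direction with the largest change, and the 5 genes most like the members. A gene named by this rule is not reported here. Raw reads were not analysed here.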

Additional observations from a re-analysis of the deposited data

How the results depend on the processing

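Of 350 log2 fold changes of the 10 genes under settings other than left-out libraries, 335 kept their direction and side of the threshold, 12 newly passed it, 2 no longer did and 1 changed sign. With RLE normalization or a mean count of at least 10, no count of called members or of all called genes moved by over 1.5 times, and the counts over whole pathway lists printed here, rerun after the data were seen, did not change. With DESeq2 the called members were 1 in clone A1 of experiments 15 and 16 and 0 between WT pairs, and 63 genes in all were called in clone A1 of experiments 10 and 11 and 535 for the difference between pairs. With only the libraries compared, the called members were 1 in clone A1 of experiments 15 and 16, 2 between the clones and 0 between WT pairs, with 1834 genes in all in clone A1 of experiments 15 and 16, 12 in clone A1 of experiments 10 and 11 and 1208 between WT pairs. With the mean of the 2 clones, 2165 genes were called in KO against WT. The causes were not tested.

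Libraries that share an experiment number may be paired, so the number was also fitted as a block. After group means were removed, same-numbered libraries correlated at 0.0844 (WT and clone A1, experiments 10 and 11), 0.134 (WT and clone A1), 0.151 (WT and clone A2) and 0.104 (clones A1 and A2, experiments 15 and 16). Not all were over 0.1, and the labels do not say that a number marks a shared culture day, so the samples were taken to share only a number. With the block, the called members and genes were 1 and 2411 in clone A1 of experiments 15 and 16, 5 and 3673 in clone A2, 2 and 1213 between the clones, 1 and 382 in clone A1 of experiments 10 and 11, and 3 and 4039 between WT pairs, with 1247 genes for the difference between pairs. The members that newly passed were VLDLR in clones A1 and A2 of experiments 15 and 16 (adjusted p of 0.00706 and 0.00956), DDIT4 in clone A2 (0.0242), SESN2 between the clones (0.00216), PSAT1 in clone A1 of experiments 10 and 11 (0.0154), and SESN2 and PSAT1 between WT pairs (0.0291 and 0.0349). DDIT4 in clone A1 of experiments 10 and 11 changed sign, from −0.00012 to 0.0081.

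With each library left out in turn, which leaves a group with 1 library that is assumed to vary like the others, the called members and genes ranged from 0 to 0 and 343 to 495 in clone A1 of experiments 15 and 16, 1 to 1 and 1020 to 1315 in clone A2, 1 to 1 and 268 to 391 between the clones, 0 to 2 and 7 to 1361 in clone A1 of experiments 10 and 11, 0 to 2 and 820 to 3658 between WT pairs, 0 to 1 and 88 to 1123 for the difference between pairs, and 0 to 1 and 190 to 1531 in KO against WT. The 1361 came without WT of experiment 10, where PSAT1 and SESN2 were called. Values that changed sign, none of them called, ranged as follows. In clone A1 of experiments 10 and 11 they were ATF4 −0.039 to 0.11, CHAC1 −0.092 to 0.0044, PHGDH −0.0083 to 0.042, DDIT4 −0.18 to 0.20 and VLDLR −0.20 to 0.12. For the difference between pairs they were ATF4 −0.026 to 0.13, ASNS −0.50 to 0.24 and DDIT4 −0.044 to 0.34, and in clone A1 of experiments 15 and 16 SESN2 −0.0056 to 0.092. Between the clones they were TRIB3 −0.011 to 0.16, CHAC1 −0.034 to 0.13, PHGDH −0.079 to 0.040, DDIT4 −0.031 to 0.059 and VLDLR −0.13 to 0.059. In clone A2 they were ASNS −0.22 to 0.096 and PHGDH −0.10 to 0.020, and in KO against WT ASNS −0.015 to 0.28. Between WT pairs they were ATF4 −0.061 to 0.093, ASNS −0.19 to 0.55, DDIT4 −0.22 to 0.17 and VLDLR −0.12 to 0.20. The lowest count of any member was 284 (CHAC1), and groups held 2 libraries; how far depth and group size each limited the calls was not tested.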

Other observations

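DDIT4, VLDLR and VEGFA are known targets of the response to low oxygen. Of 12 tested hypoxia targets, 3 were higher and 0 lower in clone A1 of experiments 15 and 16 (7 at an unadjusted p under 0.05, 2 higher by DESeq2), and 2 higher and 0 lower in clone A2 (5 at an unadjusted p under 0.05, 2 higher by DESeq2). These were 25% and 16.7% of the list, where 8.24% and 16.4% of all genes were called. With 1 of the 4 libraries compared left out, 0 or 1 were called higher in clone A1 and 1 or 2 in clone A2. In clone A1 of experiments 10 and 11 edgeR and DESeq2 called 0 of the 12, with 0 at an unadjusted p under 0.05, and 7 were called higher without WT of experiment 10 but 0 without any 1 of the other 3 libraries. SLC2A1, a glucose transporter, rose in clones A1 and A2 by 0.22 and 0.31 (edgeR QL adjusted p of 0.0491 and 0.00420), and BNIP3, a mitophagy receptor, in clone A1 by 0.48 (edgeR QL adjusted p = 0.0435). The clone A1 calls of both were lost without any 1 of the libraries compared, and that of SLC2A1 in clone A2 passed each time. In experiments 15 and 16 HILPDA, a lipid droplet protein, was at 71.9 and 67.3 CPM in WT, 125 and 122 CPM in clone A1 and 119 and 128.5 CPM in clone A2. It rose by 0.82 in clone A1 (SE 0.15, edgeR QL adjusted p = 0.00797) and by 0.83 in clone A2 (SE 0.15, edgeR QL adjusted p = 0.00363), and it was 0.92 higher in WT of experiments 15 and 16 than in WT of experiments 10 and 11 (SE 0.15, edgeR QL adjusted p = 0.00314). In the early pair it had 45.1 and 28.7 CPM in WT and 43.3 and 42.2 CPM in clone A1, so that WT of experiment 11 stood below the other 3. The clone A1 call passed only without clone A1 of experiment 16 (edgeR QL adjusted p = 0.0464), the clone A2 call was lost without clone A2 or WT of experiment 16, and that between WT pairs passed without any 1 of the WT libraries. Its 68 neighbours had medians of 0.18 in clone A1, 0.21 in clone A2 and 0.26 between WT pairs. ASNS, PSAT1, DDIT4 and VLDLR were lowest in the same library among all 10, WT of experiment 11. CA9 was not among the listed genes.

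Of 14 p53 targets, 0 were higher and 1 (FAS) lower in clone A1 of experiments 15 and 16 by edgeR and DESeq2 (3 at an unadjusted p under 0.05), and 0 higher and 1 (TP53INP1) lower in clone A2 (2 lower by DESeq2, 3 at an unadjusted p under 0.05). Each was 7.14% of the list, below the 8.24% and 16.4% of all genes called. Both calls were lost without any 1 of the 4 libraries compared. SESN2, also a p53 target, was higher in clone A2 while this list had a median of −0.10 there.

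The 5 genes whose log2 CPM over the 10 libraries was most like the mean standardised pattern of the 10 stress response genes were ENO1 (Pearson r = 0.926), PFKFB4 (0.922), UBE2D2 (0.921), NPAS3 (0.919) and REEP1 (0.918). ENO1 and PFKFB4 act in glycolysis and its control. These correlations rest on 10 libraries that share groups and experiments. The mean pattern was lowest in WT of experiment 11 (−0.81), followed by WT of experiment 16 (−0.43). How far the correlations rest on WT of experiment 11 was not tested.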
